A study of Mus musculus with 22 samples.

Results

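Stem cells and enteroendocrine cells (EECs) of the mouse colon crypt were compared by bulk RNA sequencing. The members were the 3 libraries titled Stem and the 2 titled EEC, 5 of the 22 libraries of the series, which covers 6 sorted crypt cell types. All animals were untreated wild-type C57BL/6N males of 5 to 7 weeks, and whole colons were dissociated with EDTA and mechanical force. Stem cells were sorted as live Epcam+ Cd31- Cd45- cells with the highest Cd44, low Cd24 and no Ckit. EECs were sorted as live Epcam+ Cd31- Cd45- cells that were Cd24+ with low or absent Cd44. Each stem library came from 1 mouse, whereas each EEC library pooled sorts from several mice, with at least 2500 cells per sample and 1 ng of RNA per library. A gate of this kind sets an enriched population and not a single cell type, and p-values measure only the spread between these libraries. In bulk samples, fewer cells of a type and less RNA per cell cannot be told apart.

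Crypt base stem cells divide under Wnt and Notch signals and give rise to all lineages of the colon epithelium. EECs are rare non-dividing secretory cells that store peptide hormones or serotonin in dense core granules and release them by calcium-triggered exocytosis, much as neurons do. The enterochromaffin (EC) cell, the most common EEC of the colon, makes serotonin through tryptophan hydroxylase 1. Values are read counts per gene scaled by library (normalized counts), given in the order Stem 1, Stem 2 and Stem 3 against EEC 1 and EEC 2. A log2 fold change is EEC minus stem with its standard error after ±, and calls needed an adjusted p under 0.01 (edgeR quasi-likelihood test) and an average of 50 or more normalized counts across the 22 libraries. Genes were grouped into 26 lists by function. From each list the naming rule took the first gene and the 3 largest called changes without overlap between the groups. For those 3 the lack of overlap was thus set by the rule and is not a result. A gene given outside the naming rule was chosen after its values were seen.

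The promoters of division and granule genes were read from RefSeq (GRCm38.p6) as 250 bases before to 50 after each gene's start, since most genes of these sets moved together in the counts below. The promoters were searched on both strands for 3 short motifs: TTTGAA, the core of the cell cycle gene homology region (CHR), TTTGGCGC or TTTCGCGC, forms of the E2F site, and TGACGTCA, the cAMP response element (CRE). TTTGAA was found in 22 of 30 mitosis genes that matched the table (73.3%), against 20.2% of all 27025 genes with a promoter. The E2F forms were found in 12 of 38 DNA replication genes (31.6%), against 0.929% of all genes. TGACGTCA was found in 3 of 14 genes of granins and prohormone processing (21.4%), against 2.03% of all genes. It was not particular to granule genes, since 2 of 17 gut peptide hormones (11.8%) and 4 of 50 cytosolic ribosomal proteins (8.0%) held it too. Stem and Wnt genes held it in 0 of 20, and so did voltage-gated and potassium channel genes in 0 of 30. Outside the mitosis list, TTTGAA was most frequent in gut peptide hormones, with 5 of 17 (29.4%). Outside DNA replication genes, the E2F forms were most frequent in G1 cyclins, kinases and inhibitors, with 2 of 18 (11.1%). A match describes the letters in this window and not a bound site or a cause. Each sequence is written 5′ to 3′ on the strand of its gene, with the motif in capitals. The first set shows TTTGAA in 5 mitosis genes, all called lower in EECs.
Mki67: gcgccagaaTTTGAAccgccgttt
Top2a: ttggtccatTTTGAAgattctccc
Cdk1: attggctccTTTGAAcgtctacgt
Cenpa: gggtgatttTTTGAActgctggcg
Plk1: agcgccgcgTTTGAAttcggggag
These windows lay at chr7:135716481-135716504 (minus strand), chr11:99024354-99024377 (minus strand), chr10:69352969-69352992 (minus strand), chr5:30666893-30666916 (plus strand) and chr7:122159456-122159479 (plus strand). The second set shows the E2F form in 3 subunits of the replicative helicase, also called lower in EECs. In Mcm5 the motif lies on the opposite strand, so the capitals read as its reverse complement.
Mcm3: ttgggaagtTTTGGCGCcaag
Mcm5: agaactttcGCGCCAAAacgtccagc
Mcm6: gcgtatgctTTTGGCGCgaaaagtgc
These windows lay at chr1:20820263-20820283 (minus strand), chr8:75109351-75109376 (plus strand) and chr1:128359799-128359824 (minus strand). The third set shows TGACGTCA in the 3 granule genes that hold it.
Chgb: gctgctccgTGACGTCAgggctgagc
Scg2: ctgagccggTGACGTCAgcgtggaat
Pcsk1: aggtagatcTGACGTCAagagatggc
These windows lay at chr2:132781561-132781586 (plus strand), chr1:79440078-79440103 (minus strand) and chr13:75089770-75089795 (plus strand). Chgb, a granin, had 282, 67.2 and 190 against 361977 and 869126 (log2 fold change 11.76 ± 1.25, adjusted p = 4.01e-11). Pcsk1, a prohormone convertase, had 98.7, 166 and 156 against 723 and 2137 (log2 fold change 3.36 ± 0.44, adjusted p = 1.41e-08). Scg2, another granin, was not called, with 0, 8.32 and 0 against 101 and 0 (log2 fold change 3.75 ± 1.5, adjusted p = 0.0342). The 3 genes with the same motif thus had different calls. Chgb stood at a log2 fold change of 11.00 and Pcsk1 at 2.35 without EEC 2. Scg2, not called, stood at 5.03 without EEC 2. Scg2, not called, stood at 3.02 without Stem 3.

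EECs and stem cells differed in 4541 genes. Of 22781 genes tested, 2461 (10.8%) were called higher in EECs and 2080 (9.13%) lower, and among the 13188 that averaged 50 or more these were 18.7% and 15.8%. No called gene had an absolute log2 fold change under 1.13. The groups did not overlap in 5681 genes (24.9%) with both EEC libraries above all stem libraries and in 4747 (20.8%) with both below, and among those averaging 50 or more in 20.8% and 34.9%. When each EEC library was left out in turn, 841 genes (3.69%) remained called higher in both fits and 1050 (4.61%) remained called lower. The split of calls moved with the scaling, since 54.2% of calls were higher with the trimmed mean of M values (TMM), 77.5% with size factors and 63.8% with library totals. Over those 13188 genes the median log2 fold change was -0.30 with TMM, 0.31 with size factors and -0.01 with totals. Only these genes could be called, so their shares are the nearer baseline for the list counts below.

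The EEC libraries were unlike each other. Reads on genes numbered 19900282 to 22462518 in the stem libraries, 4122122 in EEC 1 and 13132315 in EEC 2. Reads outside genes came to 45.2% to 48.5% of uniquely placed reads in stem libraries, 89.7% in EEC 1 and 64.5% in EEC 2. Gene families that gut cells do not use (1535 genes) took 54.6 to 96.1 CPM, the count scaled to a common library total, in stem libraries, 7008 in EEC 1 and 551 in EEC 2, and this level per kilobase was used as each library's background. Spearman's rho over genes, which are not independent replicates, was 0.696 between the EEC libraries and 0.925 to 0.945 between stem libraries. Among genes called higher, 94 were at 0 in EEC 2 and 1 at 0 in EEC 1, while 261 lay within or below the stem range in EEC 2 and 81 in EEC 1. Of the called genes, 1424 higher and 1000 lower had an estimated background of at least 20% of the EEC mean. That share rises as the EEC mean falls, so leaving out such genes drops genes for being low in EECs. Counts of lower genes after that step are thus no check on a decrease. The part of background in these results was not tested, and each list below is given with its counts without EEC 1 and without EEC 2, that is with 1 EEC library in turn. Log2 fold changes, and folds of genes with few or no reads in a cell type, that moved by over 1.5-fold, and calls that changed, when 1 library was left out stand at the end of each paragraph. Folds of that second kind were recomputed for the EEC libraries only, and no value is given for a gene not called that was left with at most 3 reads in a cell type.

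**Figure D1:**
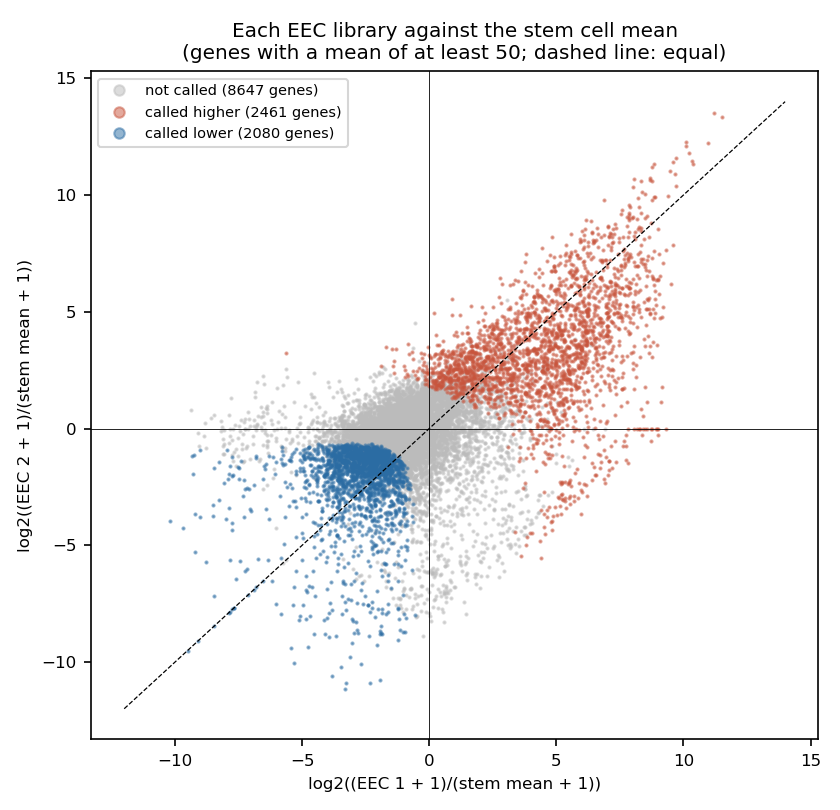
Each point is 1 of the 13188 genes averaging 50 or more normalized counts, with log2((EEC 1 + 1)/(stem mean + 1)) on the x axis and log2((EEC 2 + 1)/(stem mean + 1)) on the y axis, coloured by call, and the dashed line marks equal values. The 2461 genes called higher spread below the line as well as above it, and the 94 genes called higher at 0 in EEC 2 lie along the lower right edge.

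The labels were checked against marker genes. The summed normalized counts of the 8 EC markers were 994, 584 and 856 in the stem libraries, 597737 in EEC 1 and 1722804 in EEC 2, and all 8 were called higher, with 8 without EEC 1 and 5 without EEC 2. The 8 stem markers summed to 43433, 42841 and 54137 in the stem libraries, 3514 in EEC 1 and 2029.9 in EEC 2, and 7 were called lower, as many as without EEC 1 and without EEC 2. The 9 other EEC peptides summed to 194, 471 and 241 in the stem libraries, 6674 in EEC 1 and 13161 in EEC 2, with Sst and Sct called higher (3 called without EEC 1 and 2 without EEC 2) and Cck at 0 in every stem library. The EEC libraries thus carried EC markers and the stem libraries stem markers. The 8 enterocyte markers summed to 14926, 27059.7 and 23454 in the stem libraries, 6768 in EEC 1 and 111511 in EEC 2, and 4 were called higher (Slc26a3, Aqp8, Cyp2c55 and Ceacam20). Their direction turned with the library, since 7 were called higher and 0 lower without EEC 1 against 1 higher and 3 lower without EEC 2. The 8 goblet markers summed to 32563, 19418 and 21803 in the stem libraries, 36713 in EEC 1 and 61791 in EEC 2, and Zg16 was called higher, with 3 called higher without EEC 1 and 0 without EEC 2. Enterocyte markers were thus high in EEC 2 and low in EEC 1, and goblet markers were at least as high in both EEC libraries as in stem libraries.

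Tuft cell markers, which share the Cd24+ side of the sort, summed over 10 genes to 81.9, 97.3 and 122 in the stem libraries, 5125 in EEC 1 and 9704 in EEC 2, and 9 were called higher, 7 without EEC 1 and 9 without EEC 2. Il25 and Gfi1b were at 0 in every stem library. Immune markers (12 genes) summed to 1156, 1806 and 1918 in the stem libraries, 3522 in EEC 1 and 786 in EEC 2, with Ptprc, Csf1r and Adgre1 called higher, Cd74 called lower and Cd79a at 0 in both EEC libraries. Without EEC 1 there were 1 higher and 1 lower, and without EEC 2 there were 4 and 1. Stromal and muscle markers (10 genes) summed to 304, 284 and 139.5 in the stem libraries, 4046 in EEC 1 and 518 in EEC 2, with Col1a1, Col1a2, Pdgfra and Myh11 called higher, 1 called without EEC 1 and 4 without EEC 2. Endothelial markers (5 genes) summed to 167, 74.3 and 144 in the stem libraries, 2056 in EEC 1 and 1349 in EEC 2, and all 5 were called higher, 2 without EEC 1 and 5 without EEC 2. Enteric neuron and glia markers (10 genes, of which Elavl4 and Uchl1 also stand in function lists) summed to 124, 169.6 and 122 in the stem libraries, 2769.6 in EEC 1 and 4262 in EEC 2, with Ret, Nos1 and Gfap called higher, 1 called without EEC 1 and 3 without EEC 2. The non-epithelial sums include background reads. They were higher in EEC 1 than in EEC 2 for immune, stromal and endothelial markers and lower for enteric neuron markers. The estimated background made up 29.2% to 47.3% of these sums in EEC 1 and 5.2% to 43.6% in EEC 2. For endothelial markers it was 42.3% in EEC 1 and 10.8% in EEC 2. Whether the order of the EEC libraries holds without background was not tested. The part of tuft and non-epithelial cells in the results was not tested either.

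**Figure D2:**
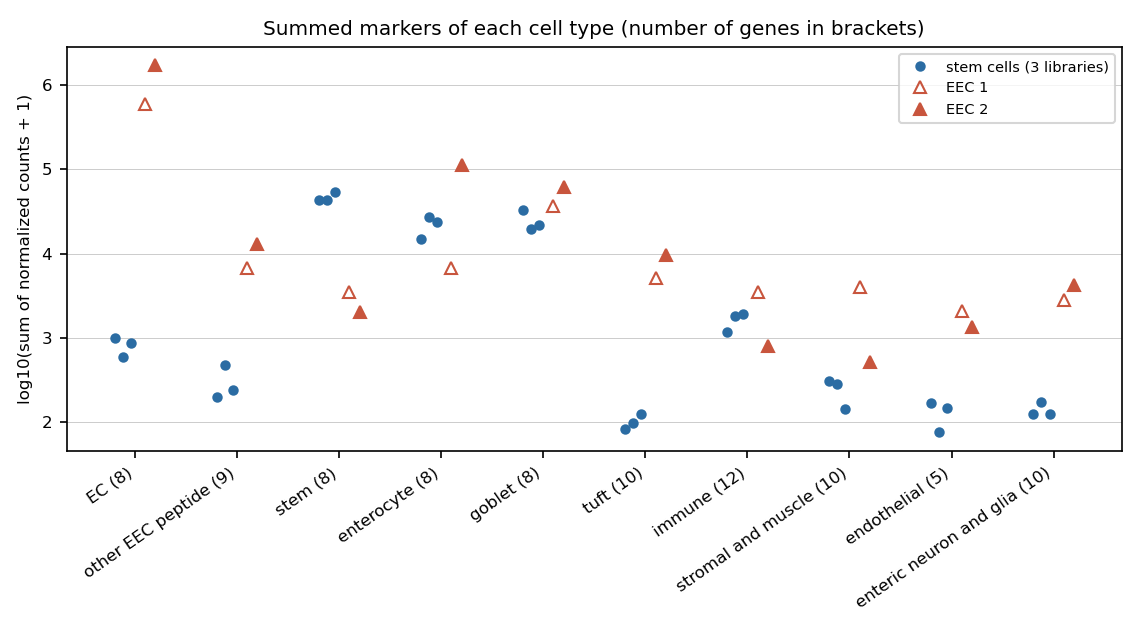
Summed normalized counts of 10 marker lists on a log10 scale after adding 1, with the number of genes in brackets, for the 3 stem libraries (circles), EEC 1 (open triangles) and EEC 2 (filled triangles). EC sums reach 597737 and 1722804 in EECs, stem marker sums lie at 42841 or above in stem libraries, and enterocyte markers separate EEC 1 from EEC 2.

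**Figure D3:**
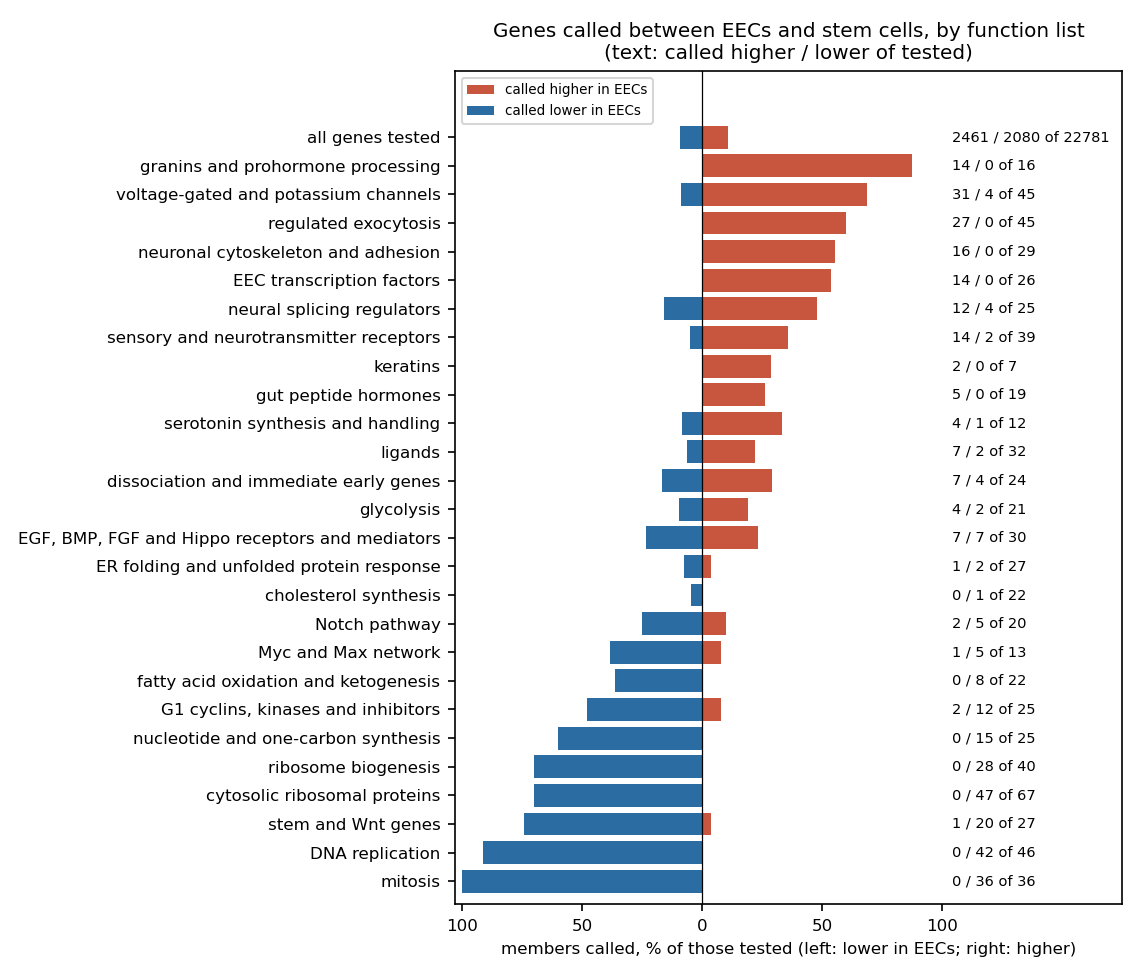
For each of 26 function lists and for all genes tested, bars show the percent of tested members called higher in EECs (right) or lower (left), with the counts written beside them. All 36 mitosis genes were called lower and 14 of 16 granin and prohormone processing genes were called higher, against 10.8% higher and 9.13% lower over all genes. Among genes averaging 50 or more normalized counts these shares were 18.7% and 15.8%.

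Genes of the stem cell and of Wnt signalling were lower in EECs. Of 27 members tested, 20 were called lower and 1 higher, against 9.13% lower of all genes and 15.8% of those averaging 50 or more. The median log2 fold change was -2.40, against 0.68 over all genes tested and -0.30 over those averaging 50 or more. Without EEC 1 there were 19 called lower, and without EEC 2 there were 19. Lgr5 (ENSMUSG00000020140, chromosome 10, 115450311 to 115587780 in mm10), the R-spondin receptor that marks crypt base stem cells, had 2594, 2006 and 3197 against 347 and 163 (log2 fold change -3.41 ± 0.47, adjusted p = 4.66e-08). Ascl2, a Wnt-driven transcription factor of the stem cell, had 449.8, 445 and 559.9 against 30.7 and 0 (log2 fold change -5.27 ± 0.97, adjusted p = 1.5e-05). Slc12a2, a sodium, potassium and chloride cotransporter, had 26819, 27783 and 34621 against 1128 and 277 (log2 fold change -5.47 ± 0.75, adjusted p = 4.39e-08). All 3 genes had every stem library above both EEC libraries, which the naming rule required of Ascl2 and Slc12a2. The Wnt targets Axin2, Rnf43, Znrf3, Sox9 and Ephb2 were among those called lower, and the Wnt antagonist Nkd1 was the member called higher, a call lost without EEC 1 and with genes of at least 20% background left out. Axin2, a feedback inhibitor of Wnt, had 4499, 4155 and 5314 against 671 and 781 (log2 fold change -2.67 ± 0.42, adjusted p = 1.17e-06). The estimated background made up 43.9% of the Lgr5 value in EEC 1 and 15.8% in EEC 2. Lgr5 stood at a log2 fold change of -4.16 and Slc12a2 at -6.91 without EEC 1. Ascl2 stayed called without EEC 1, with at most 3 reads left in that cell type. Ascl2 stood at a log2 fold change of -3.98 and Slc12a2 at -4.72 without EEC 2.

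DNA replication genes were lower in EECs almost throughout. Of 46 tested, 42 were called lower and 0 higher (10.8% of all genes were called higher), with a median of -2.70; 41 were called lower without EEC 1 and 33 without EEC 2. Mcm2, a subunit of the replicative helicase, had 2843, 3410 and 2424 against 345 and 136 (log2 fold change -3.67 ± 0.50, adjusted p = 4.63e-08). Rrm2, the small subunit of ribonucleotide reductase, had 763, 1261 and 636 against 101 and 0 (log2 fold change -4.41 ± 0.66, adjusted p = 4.12e-07). Rpa2, which coats single-stranded DNA, had 351, 525 and 427 against 0 and 7.28 (log2 fold change -6.61 ± 1.00, adjusted p = 5.07e-07). Gins1, a helicase cofactor, had 26.8, 193 and 200.1 against 0 in both EEC libraries (at least 64.3-fold lower, adjusted p = 7.49e-04). The background was 31.6% of the Mcm2 value in EEC 1 and 13.5% in EEC 2, and 70.1% of the Rrm2 value in EEC 1, while Rrm2 was at 0 in EEC 2. When genes with a background of at least 20% were left out, 9 of the 42 were still called lower. That step drops genes for a low EEC level, so the 9 is no check on the decrease. Mcm2 stood at a log2 fold change of -4.58 without EEC 1. The bound for Gins1 was at least 38.5-fold lower without EEC 1. Rrm2 stayed called without EEC 1, with at most 3 reads left in that cell type. Mcm2 stood at a log2 fold change of -3.07 and Rrm2 at -3.13 without EEC 2. The bound for Gins1 was at least 25.8-fold lower without EEC 2. Rpa2 stayed called without EEC 2, with at most 3 reads left in that cell type. Gins1 (adjusted p = 0.0112) lost its call without EEC 2.

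Mitosis genes were all called lower, 36 of 36, with a median of -3.17. Without EEC 1 all 36 were called lower, without EEC 2 29, and with genes of at least 20% background left out 5. That last step drops genes for a low EEC level, so the 5 is no check on the decrease. Mki67 (ENSMUSG00000031004, chromosome 7, 135689784 to 135716361), the Ki-67 proliferation antigen, had 18355, 22299 and 26133 against 1168 and 819 (log2 fold change -4.50 ± 0.68, adjusted p = 4.95e-07). Top2a, the topoisomerase that untangles chromosomes, had 4914, 8390.2 and 8667 against 304 and 107 (log2 fold change -5.25 ± 0.60, adjusted p = 3.6e-10). Ube2c, which marks mitotic cyclins for destruction, had 1378, 1760.4 and 1183 against 52.4 and 1.21 (log2 fold change -6.02 ± 0.70, adjusted p = 5.29e-10). Cdca8, a subunit of the chromosomal passenger complex, had 743, 1222 and 1089.5 against 56.0 and 2.43 (log2 fold change -5.39 ± 0.73, adjusted p = 3.37e-08). In all 4 genes the stem libraries lay above both EEC libraries, which the naming rule required of all but Mki67. Cenpa, the histone that marks centromeres, and Plk1, a mitotic kinase, fell less, with 719, 764 and 765 against 333 and 83.7 (log2 fold change -1.96 ± 0.47, adjusted p = 5.54e-04) and 1389, 1655 and 1481 against 407 and 450.2 (log2 fold change -1.81 ± 0.47, adjusted p = 0.00130). Top2a stood at a log2 fold change of -6.26 and Cenpa at -3.32 without EEC 1. Ube2c and Cdca8 stayed called without EEC 1, with at most 3 reads left in that cell type. Top2a stood at a log2 fold change of -4.59, Ube2c at -4.78 and Cdca8 at -4.19 without EEC 2. Cenpa (-1.17, adjusted p = 0.0502) lost its call without EEC 2.

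The genes that set entry into the cycle moved in both directions. Of 25 G1 cyclins, kinases and inhibitors, 12 were called lower and 2 higher, with a median of -1.59; without EEC 1 there were 13 lower and 3 higher, and without EEC 2 there were 10 and 1. Ccnd1, cyclin D1, had 3596, 3165 and 3133 against 369 and 223 (log2 fold change -3.52 ± 0.47, adjusted p = 2.95e-08). Ccne1, cyclin E1, had 275, 559 and 459 against 54.2 and 3.64 (log2 fold change -4.15 ± 0.78, adjusted p = 2.35e-05). E2f8, a repressor of the E2F family, had 982, 1634 and 1412 against 108 and 89.8 (log2 fold change -3.78 ± 0.52, adjusted p = 4.53e-08). Both genes called higher, Cdkn1a and Cdkn1c, encode inhibitors of cyclin-dependent kinases. Cdkn1c (p57) had 45.9, 25.0 and 36.4 against 604 and 848 (log2 fold change 4.38 ± 0.50, adjusted p = 3.33e-10). Cdkn1c had both EEC libraries above all stem libraries, as the naming rule required, and moved in the direction opposite to the cyclins. With size factors the list had 8 called lower and 5 higher. Ccne1 stayed called without EEC 1, with at most 3 reads left in that cell type. Ccne1 stood at a log2 fold change of -3.00 without EEC 2.

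Ribosome biogenesis genes were lower in EECs, with 28 of 40 called lower, 0 higher and a median of -1.79; without EEC 1 there were 27 and without EEC 2 26. Ncl, the nucleolar protein nucleolin, had 28608, 33009 and 41729 against 4984 and 6866 (log2 fold change -2.54 ± 0.60, adjusted p = 5.57e-04). Nop56, a core protein of the box C/D particles that guide RNA methylation, had 1626, 2146 and 2145 against 74.1 and 292 (log2 fold change -3.32 ± 0.50, adjusted p = 4.67e-07). Nhp2, of the box H/ACA particles, had 1087, 1129 and 1183 against 136 and 41.3 (log2 fold change -3.81 ± 0.57, adjusted p = 3.17e-07). Polr1c, shared by RNA polymerases I and III, had 817, 673 and 688 against 3.62 and 52.2 (log2 fold change -4.48 ± 0.66, adjusted p = 2.34e-07). The order of the EEC libraries differed among these genes, with EEC 1 below EEC 2 for Ncl, Nop56 and Polr1c and above it for Nhp2. Nhp2 stood at a log2 fold change of -4.94 without EEC 1. Nop56 stood at a log2 fold change of -4.74 and Nhp2 at -3.06 without EEC 2. Polr1c stayed called without EEC 2, with at most 3 reads left in that cell type.

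Cytosolic ribosomal protein genes followed the same direction. Of 67 tested of 68 listed, 47 were called lower and 0 higher, with a median of -2.37 (-2.30 with genes without reads in a group set at their bound); 46 were called without EEC 1 and 42 without EEC 2. Rplp0 had 30212, 28859 and 28842 against 1607 and 5297 (log2 fold change -3.07 ± 0.65, adjusted p = 1.3e-04). Rpsa had 23382, 23264 and 23671 against 1538 and 2906 (log2 fold change -3.39 ± 0.62, adjusted p = 1.53e-05). Rps2 had 10701, 9245 and 9445 against 593 and 1193 (log2 fold change -3.43 ± 0.54, adjusted p = 1.09e-06), and Rpl14 had 2202, 2646 and 2941 against 222 and 263 (log2 fold change -3.40 ± 0.52, adjusted p = 5.22e-07). In Rplp0, Rpsa, Rps2 and Rpl14 both EEC libraries lay below all stem libraries, which the naming rule required of all but Rplp0. Ribosomal protein genes have many near-identical processed copies in the genome and reads that fit several places were not counted, so their levels are uncertain. Rplp0 stood at a log2 fold change of -4.19 and Rps2 at -4.05 without EEC 2.

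Nucleotide and one-carbon synthesis genes, which feed DNA and RNA synthesis, had 15 of 25 called lower and 0 higher, with a median of -1.63; without EEC 1 there were 13 and without EEC 2 17. Shmt1, serine hydroxymethyltransferase, had 2641, 3003 and 3029 against 219 and 99.5 (log2 fold change -4.26 ± 0.51, adjusted p = 1.64e-09). Gart and Paics, enzymes of purine synthesis, had 2397, 3011 and 2608 against 269 and 146 (log2 fold change -3.74 ± 0.50, adjusted p = 2.25e-08) and 1572, 1728 and 1771 against 226 and 258 (log2 fold change -2.79 ± 0.49, adjusted p = 7.96e-06). Ppat, the first enzyme of that pathway, was not called, with 369, 589.6 and 704 against 83.2 and 301 (log2 fold change -1.43 ± 0.48, adjusted p = 0.0111). Of 13 genes of the Myc and Max network, 5 were called lower (Myc, Mycl, Mxd3, Mlxip and Mlxipl) and 1 higher, with a median of -0.62. Leaving out EEC 1 gave 3 lower and 2 higher, without EEC 2 there were 4 and 1, and with size factors 3 and 3. Myc, the growth-promoting transcription factor, had 3298, 2462 and 3020 against 365 and 65.5 (log2 fold change -3.90 ± 0.54, adjusted p = 5.41e-08). Mlxipl, the carbohydrate response factor ChREBP, had 1671, 1857 and 2669 against 515 and 411 (log2 fold change -2.17 ± 0.42, adjusted p = 3.77e-05). Mxd3, a partner of Max, had 116, 219 and 48.5 against 3.62 and 0 (a stem to EEC ratio of 89.4 with a 95% counting interval of 24.6 to 739.8 and adjusted p = 0.00141). The member called higher was Mxd1, a Max partner that opposes Myc, with 363, 486 and 397 against 1299.8 and 2319.9 (log2 fold change 2.13 ± 0.44, adjusted p = 8.68e-05). Myc and Mxd1 thus lay on opposite sides, each with groups that did not overlap. Shmt1 stood at a log2 fold change of -5.02, Gart at -4.36 and Myc at -5.64 without EEC 1. The bound for Mxd3 was at least 35.1-fold lower without EEC 1. Myc stood at a log2 fold change of -3.00 without EEC 2. The ratio for Mxd3 was 35.9 without EEC 2, with an interval of 9.89 to 297. Mxd3 (adjusted p = 0.0217) lost its call without EEC 2. Ppat (-2.74, adjusted p = 0.00165) was called lower without EEC 2. Ppat (-1.65, adjusted p = 0.00571) was called lower without Stem 1. Mxd3 (adjusted p = 0.0106) lost its call without Stem 2.

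Notch pathway genes, which hold crypt cells back from the secretory lineage, were split. Of 20 tested, 5 were called lower (Notch1, Jag1, Hes1, Lfng and Nrarp) and 2 higher (Notch3 and Jag2), and the median of -0.38 turned to 0.28 with size factors. With EEC 2 alone there were 6 lower and 1 higher, and without EEC 2 there were 6 and 3. Notch1, the main receptor of crypt stem cells, had 5961, 4676 and 5054 against 336 and 368 (log2 fold change -3.89 ± 0.48, adjusted p = 4.26e-09). Hes1, the repressor that Notch induces, had 1338, 1357 and 1468 against 28.9 and 139.5 (log2 fold change -3.90 ± 0.56, adjusted p = 1.84e-07). Nrarp, a feedback target, had 823, 757 and 617 against 161 and 127 (log2 fold change -2.37 ± 0.49, adjusted p = 1.01e-04). The receptor Notch1 and both of its targets lay lower in each EEC library than in any stem library, which the naming rule required of Hes1 and Nrarp. With genes of at least 20% background left out, none of the 5 was called lower. That step drops genes for a low EEC level, so it is no check on the decrease. The background came to 91.3% of the Notch1 value in EEC 1 and 14% in EEC 2. The list had 4 called higher and 3 lower with size factors. Hes1 stood at a log2 fold change of -5.58 without EEC 2.

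**Figure D4:**
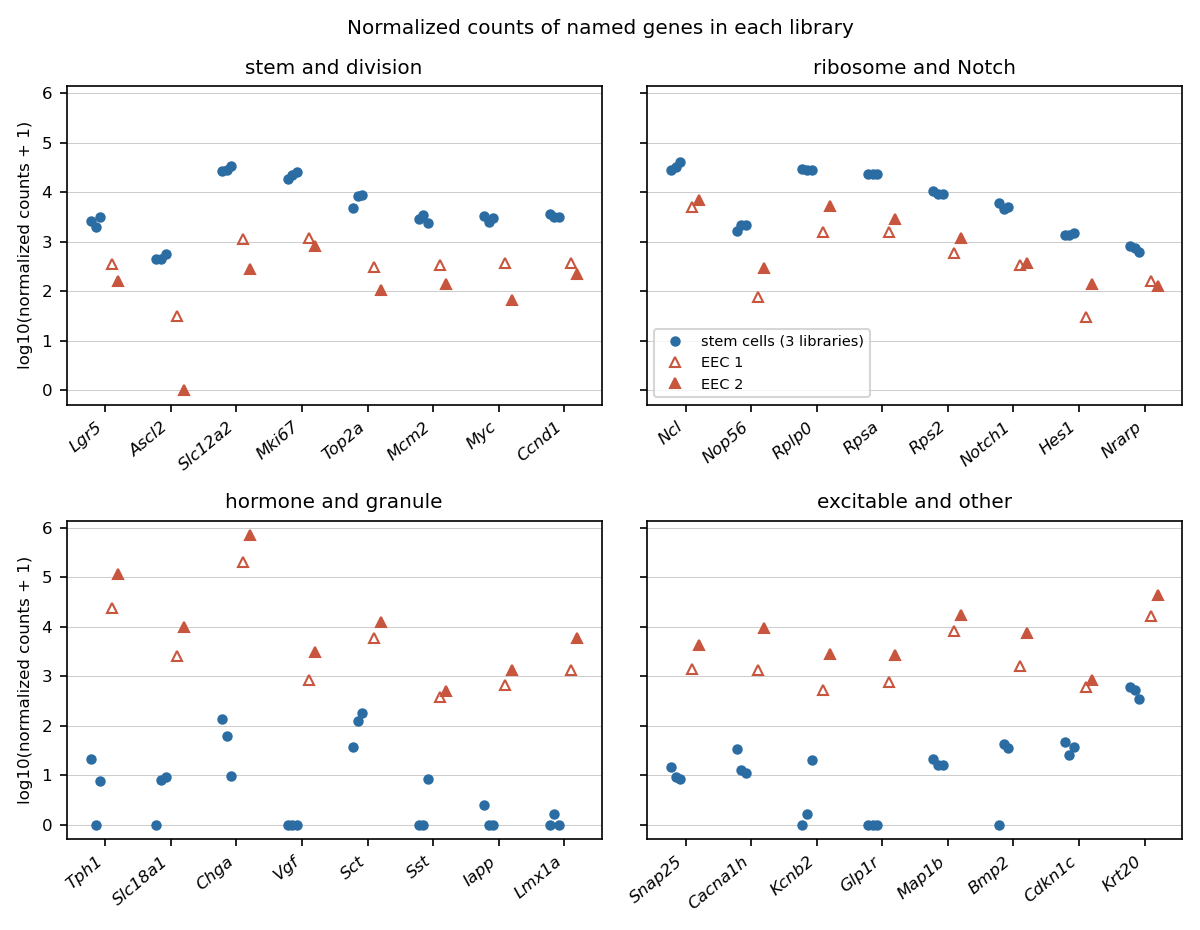
Normalized counts of 32 named genes on a log10 scale after adding 1, with stem libraries as circles, EEC 1 as open triangles and EEC 2 as filled triangles. In the upper panels (stem, division, ribosome and Notch genes) every circle lies above both triangles, and in the lower panels (hormone, granule, excitability and other genes) both triangles lie above every circle. The naming rule required this of all but the first genes of lists. First genes whose groups overlapped, such as Neurog3, Tubb3, Hk1 and Hmgcs1, are not shown. The separation seen here was thus set by the choice of genes and is not a result.

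Transcription factors of the enteroendocrine lineage were higher in EECs. Of 26 tested, 14 were called higher and 0 lower, with a median of 5.34 against 0.68 over all genes; 13 were called higher without EEC 1, and without EEC 2 there were 11 higher and 2 lower. Over all genes averaging 50 or more the median was -0.30. Lmx1a (ENSMUSG00000026686, chromosome 1, 167689237 to 167848741), a LIM homeobox factor of EC cells, had 0, 0.640 and 0 against 1322 and 6067 (a ratio of 18115 with a 95% counting interval of 3250 to 715627 and adjusted p = 1.69e-16). Pax6, a paired box factor of endocrine cells, had 0.765, 0 and 2.02 against 765 and 571 (log2 fold change 9.31 ± 0.98, adjusted p = 1.77e-11). Scrt1, a zinc finger repressor of neurons, had 0, 0 and 2.02 against 528 and 101 (a ratio of 395 with a 95% counting interval of 134 to 1925 and adjusted p = 7.25e-07). Lmx1a was higher in EEC 2 than in EEC 1, and the other two in EEC 1. Neurog3, the factor that starts the lineage in progenitors, was not called, with 15.3, 12.2 and 67.4 against 45.2 and 0 (log2 fold change -0.79 ± 1.32, adjusted p = 0.651). Factors that act after it, Neurod1 and Insm1, were called higher, with 45.1, 10.2 and 39.1 against 4219 and 13397 (log2 fold change 8.16 ± 0.56, adjusted p = 2.19e-17) and 16.8, 8.96 and 92.3 against 1085 and 6891 (log2 fold change 6.66 ± 0.57, adjusted p = 3.58e-14). Neurod1 and Insm1 thus had both EEC libraries above the stem range, whereas Neurog3 overlapped. Insm1 stood at a log2 fold change of 7.28 without EEC 1. The ratio for Scrt1 was 146 without EEC 1, with an interval of 48.3 to 723. Scrt1 (adjusted p = 0.00356) averaged under 50 and lost its call without EEC 1. Neurod1 stood at a log2 fold change of 7.09 and Insm1 at 4.77 without EEC 2. The ratio for Lmx1a was 5753 without EEC 2, with an interval of 1029 to 227548. The ratio for Scrt1 was 766 without EEC 2, with an interval of 259.6 to 3736. Neurog3, not called, stood at 0.50 without EEC 2. Scrt1 (adjusted p = 7.3e-09) averaged under 50 and lost its call without EEC 2. Pax6 stood at a log2 fold change of 8.64 and Insm1 at 6.04 without Stem 2. Insm1 stood at a log2 fold change of 8.14 without Stem 3. Neurog3, not called, stood at 0.28 without Stem 3. Pax6 stayed called without Stem 3, with at most 3 reads left in that cell type.

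Genes of serotonin synthesis and handling included the EC cell's defining enzyme. Of 12 tested, 4 were called higher (Tph1, Ddc, Slc18a1 and Gch1) and 1 lower (Spr), with a median of 0.41; without EEC 1 there were again 4 higher and 1 lower, without EEC 2 there were 2 and 2, and with size factors 6 and 1. Tph1 (ENSMUSG00000040046, chromosome 7, 46644641 to 46672537), the rate-limiting enzyme of serotonin synthesis in the gut, had 19.9, 0 and 6.74 against 23482 and 114311 (log2 fold change 13 ± 0.94, adjusted p = 5.66e-17). Slc18a1, the transporter that loads serotonin into granules, had 0, 7.04 and 8.09 against 2516 and 9702 (log2 fold change 10.15 ± 0.63, adjusted p = 1.29e-19). Gch1, which makes the cofactor of Tph1, had 39.8, 62.1 and 54.6 against 224 and 1977 (log2 fold change 4.44 ± 0.53, adjusted p = 1.28e-09). Ddc, which turns 5-hydroxytryptophan into serotonin, had 549, 437 and 632 against 1012 and 4395 (log2 fold change 2.35 ± 0.40, adjusted p = 4.5e-06). Synthesis, cofactor and storage genes of the pathway were thus called higher, and Spr, the last enzyme of cofactor synthesis, was called lower. Gch1 stood at a log2 fold change of 5.06 without EEC 1. Tph1 stood at a log2 fold change of 11.44 and Slc18a1 at 8.86 without EEC 2. Gch1 (2.08, adjusted p = 0.0127) and Ddc (0.91, adjusted p = 0.0851) lost their calls without EEC 2. Tph1 stood at a log2 fold change of 14.30 without Stem 1. Tph1 stood at a log2 fold change of 12.24 without Stem 2.

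Among peptide hormones, only 8 of the 19 tested averaged 50 or more normalized counts and could be called. Of 19 tested, 5 were called higher (Tac1, Sst, Sct, Adm and Iapp) and 0 lower, with a median of 3.44; 5 were called without EEC 1 and 2 without EEC 2. Sct, secretin, had 36.0, 125 and 177 against 5948 and 12404 (log2 fold change 6.32 ± 0.56, adjusted p = 9.66e-14). Sst, somatostatin, had 0, 0 and 7.41 against 385 and 511 (log2 fold change 7.42 ± 1.01, adjusted p = 2.28e-08). Iapp, amylin, had 1.53, 0 and 0 against 663 and 1332 (a ratio of 2315 with a 95% counting interval of 639.8 to 19136 and adjusted p = 1.26e-14). Tac1, the precursor of substance P, had 7.65, 10.2 and 1.35 against 90.4 and 807 (log2 fold change 6.19 ± 0.83, adjusted p = 1.93e-08). All 4 hormones had both EEC libraries above all stem libraries, which the naming rule required of all but Tac1. Gcg, the precursor of glucagon-like peptides made by L cells, was not called, with 32.9, 140.2 and 18.9 against 0 and 2.43 (a stem to EEC ratio of 45.9 with a 95% counting interval of 12.6 to 381 and adjusted p = 0.172). Cck, cholecystokinin, was read only in EEC 1, with 0 in every stem library against 186 and 0. Tac1 stood at a log2 fold change of 6.78 without EEC 1. Sct stood at a log2 fold change of 5.69 without EEC 2. The ratio for Iapp was 1444 without EEC 2, with an interval of 397 to 11970.1. Tac1 (3.79, adjusted p = 0.0180) lost its call without EEC 2. Iapp (adjusted p = 1.44e-11) averaged under 50 and lost its call without EEC 2. Sst stood at a log2 fold change of 6.70 without Stem 2. Tac1 stood at a log2 fold change of 5.54 without Stem 3. Sst stayed called without Stem 3, with at most 3 reads left in that cell type.

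Levels between genes can be compared only per length. Per kilobase of exon, Chga stood at 110010 and 380820 normalized counts in EEC 1 and EEC 2 and Tph1 at 4937 and 24035. Sct stood at 11138 and 23229 on that scale, Iapp at 791 and 1588, Sst at 534 and 708 and Tac1 at 73.5 and 656. Pyy stood at 58.0 and 158 in EECs and at 85.9, 246 and 1.20 in stem libraries, so its groups overlapped. Chga and Tph1 thus stood above these peptide hormones in EEC 2, while in EEC 1 Sct stood above Tph1.

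Granins, the acidic proteins that form dense core granules, and the enzymes that process prohormones were mostly called higher. Of 16 tested, 14 were called higher and 0 lower, with a median of 7.73; 14 were called without EEC 1 and 13 without EEC 2. Chga (ENSMUSG00000021194, chromosome 12, 102554969 to 102565028), chromogranin A, had 135, 62.1 and 8.76 against 207142 and 717075 (log2 fold change 12.76 ± 1.25, adjusted p = 2.7e-12). Chga and Chgb together took 7.637% of the counts of EEC 1 and 9.955% of EEC 2, against 0.001% to 0.003% in stem libraries. Vgf, a granin-like precursor, had 0 in every stem library against 826 and 3109 (at least 2855-fold higher, adjusted p = 5.85e-17). Resp18, an endocrine granule protein, had 0.765, 0 and 0 against 1625 and 3524 (a ratio of 12021 with a 95% counting interval of 2156 to 474920 and adjusted p = 2.19e-17). The convertase Pcsk1, the carboxypeptidase Cpe and the amidating enzyme Pam were also called higher. The bound for Vgf was at least 4511-fold higher without EEC 1. Chga stood at a log2 fold change of 11.60 without EEC 2. The bound for Vgf was at least 1199-fold higher without EEC 2. The ratio for Resp18 was 7075 without EEC 2, with an interval of 1267 to 279773. Chga stood at a log2 fold change of 13.64 without Stem 1. Chga stood at a log2 fold change of 12.05 without Stem 3.

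The machinery of regulated exocytosis was higher in EECs as well. Of 45 tested, 27 were called higher and 0 lower, with a median of 4.16; 27 were called without EEC 1, and without EEC 2 there were 24 higher and 1 lower. Snap25, a SNARE of the plasma membrane, had 13.8, 8.32 and 7.41 against 1416 and 4354 (log2 fold change 8.22 ± 0.58, adjusted p = 9.61e-18). Rab3c, a GTPase of secretory vesicles, had 0.765, 1.92 and 2.70 against 819 and 2635 (log2 fold change 9.81 ± 0.78, adjusted p = 2.42e-15). Syt5 and Doc2b, both calcium-binding membrane proteins, had 0, 1.28 and 0 against 439 and 1017 (a ratio of 1708 with a 95% counting interval of 472 to 14125 and adjusted p = 4.76e-14) and 1.53, 0 and 0 against 544 and 772 (a ratio of 1481 with a 95% counting interval of 409 to 12246 and adjusted p = 9.24e-12). None of these genes was above 20 normalized counts in a stem library. Called members also included the SNARE Stx1a, the priming factors Unc13a and Cadps, the active zone proteins Bsn and Pclo and the vesicle proteins Syp, Sv2a, Syn1 and Syn2. Snap25 stood at a log2 fold change of 7.17 and Rab3c at 8.70 without EEC 2. The ratio for Syt5 was 956 without EEC 2, with an interval of 262 to 7941. Syt5 (adjusted p = 6.43e-10) averaged under 50 and lost its call without EEC 2.

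Ion channel genes were mostly higher in EECs, with fewer called without EEC 1. Of 45 voltage-gated and potassium channel genes, 31 were called higher and 4 lower, with a median of 4.98; without EEC 1 there were 21 higher, without EEC 2 31, and with genes of at least 20% background left out 14. Cacna1h, a T-type calcium channel, had 32.1, 11.5 and 10.1 against 1367 and 9304 (log2 fold change 8.27 ± 0.63, adjusted p = 5.05e-16). Kcnb2, a delayed rectifier potassium channel, had 0, 0.640 and 19.5 against 535 and 2873 (log2 fold change 7.96 ± 0.75, adjusted p = 3.35e-13). Kcnd3, an A-type potassium channel, had 0, 0.640 and 0 against 475 and 204 (a ratio of 1362 with a 95% counting interval of 243 to 53933 and adjusted p = 3.33e-08). Scn1a, a sodium channel, had 16.1, 0.640 and 7.41 against 206 and 65.5 (log2 fold change 4.02 ± 1.06, adjusted p = 0.00145). The background was 132% of the Scn1a value in EEC 1 and 69.6% in EEC 2, so its value in EEC 1 did not exceed the background. For Kcnd3 it was 49.2% in EEC 1 and 19.3% in EEC 2. Both genes lost their calls with genes of at least 20% background left out. The 4 called lower were Scn2b, Kcnk1, Kcnq1 and Kcnn4, of which Kcnq1 and Kcnn4 are potassium channels of transporting epithelia. Cacna1h stood at a log2 fold change of 8.90 without EEC 1. The ratio for Kcnd3 was 887 without EEC 1, with an interval of 157 to 35258. Scn1a (2.93, adjusted p = 0.127) lost its call without EEC 1. Cacna1h stood at a log2 fold change of 6.29, Kcnb2 at 6.25 and Scn1a at 4.74 without EEC 2. The ratio for Kcnd3 was 2069.9 without EEC 2, with an interval of 368 to 82064. Cacna1h stood at a log2 fold change of 8.94 and Scn1a at 4.95 without Stem 1. Kcnb2 stood at a log2 fold change of 7.26 without Stem 2. Scn1a (3.34, adjusted p = 0.0157) lost its call without Stem 2. Kcnb2 stayed called without Stem 3, with at most 3 reads left in that cell type. Scn1a (3.86, adjusted p = 0.0110) lost its call without Stem 3.

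Receptors for nutrients, neurotransmitters and touch were called in both directions. Of 39 tested, 14 were called higher and 2 lower (Ffar4 and Htr4), with a median of 5.96 (5.56 at the bound); without EEC 1 there were 12 higher and 5 lower, and without EEC 2 there were 11 and 1. Glp1r (ENSMUSG00000024027, chromosome 17, 30901817 to 30940791), the receptor for glucagon-like peptide 1, had 0 in every stem library against 759 and 2725 (at least 2528-fold higher, adjusted p = 9.17e-16). Galr1, a galanin receptor, had 0 in every stem library against 432 and 2362 (at least 2028-fold higher, adjusted p = 2.05e-14). Olfr78, an olfactory-type receptor known to sense short chain fatty acids and lactate, had 0 in every stem library against 468 and 971 (at least 1044-fold higher, adjusted p = 3.68e-13). None of the 3 had a read in any stem library. Piezo1, a mechanosensitive channel, was not called, with 874, 856 and 586 against 555 and 194 (log2 fold change -1.11 ± 0.46, adjusted p = 0.0417). Piezo2, its relative in sensory cells, was called higher, with 10.7, 8.32 and 4.04 against 1757 and 1807 (log2 fold change 7.85 ± 0.68, adjusted p = 2.08e-14). The somatostatin receptors Sstr1, Sstr3 and Sstr5 and the fatty acid receptor Ffar2 were also called higher, and Trpm5 stands in the tuft list too. The bounds for Glp1r and Galr1 were at least 3955-fold and 3428-fold higher without EEC 1. Piezo1 (-2.16, adjusted p = 0.00252) was called lower without EEC 1. The bounds for Glp1r, Galr1 and Olfr78 were at least 1102-fold, 627-fold and 679-fold higher without EEC 2. Piezo1, not called, stood at -0.48 without EEC 2.

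RNA-binding proteins that direct splicing in neurons were partly called. Of 25 tested, 12 were called higher and 4 lower (Ptbp1, Mbnl1, Mbnl3 and Esrp1), with a median of 1.93; without EEC 1 there were 8 and 4, and without EEC 2 there were 9 and 6. With genes of at least 20% background left out, 4 were called higher and 3 lower. Elavl3, a neuronal Hu protein, had 3.06, 0 and 4.72 against 439 and 529 (log2 fold change 7.52 ± 0.86, adjusted p = 1.51e-10). Rbfox3, the neuronal nuclear antigen NeuN, had 0, 0 and 2.70 against 351 and 178 (log2 fold change 7.93 ± 1.18, adjusted p = 2.56e-07). Srrm3, a driver of neural microexons, had 20.7, 0 and 15.5 against 300.1 and 229 (log2 fold change 4.48 ± 0.78, adjusted p = 4.76e-06), and Celf6 had 4.59, 1.92 and 0 against 66.9 and 669 (log2 fold change 7.50 ± 0.99, adjusted p = 1.06e-08). Ptbp1, a repressor of neural exons outside the nervous system, had 5704, 6058 and 5600 against 701 and 2288 (log2 fold change -1.92 ± 0.47, adjusted p = 7.08e-04). Mbnl3, a muscleblind protein, had 954, 1335 and 1478 against 32.5 and 49.7 (log2 fold change -4.88 ± 0.67, adjusted p = 4.31e-08). Ptbp1 and Mbnl3 were lower in each EEC library than in any stem library, while the 4 neuronal factors were higher in each. Apart from Srrm3, these genes were named by that trait or chosen after their values were seen. The background was 45.4% of the Rbfox3 value in EEC 1 and 15.0% in EEC 2. Rbfox3 lost its call with genes of at least 20% background left out. Rbfox3 stood at a log2 fold change of 7.26 and Celf6 at 8.09 without EEC 1. Srrm3 (4.14, adjusted p = 2.95e-04) averaged under 50 and lost its call without EEC 1. Ptbp1 stood at a log2 fold change of -3.05 without EEC 2. Celf6 (4.93, adjusted p = 0.0128) lost its call without EEC 2. Srrm3 stood at a log2 fold change of 5.09 without Stem 1. Celf6 stayed called without Stem 1, with at most 3 reads left in that cell type. Elavl3 stood at a log2 fold change of 6.81, Rbfox3 at 7.26 and Srrm3 at 3.76 without Stem 2. Elavl3 stood at a log2 fold change of 8.18 and Celf6 at 6.76 without Stem 3. Rbfox3 stayed called without Stem 3, with at most 3 reads left in that cell type.

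Neuronal cytoskeleton and adhesion genes had 16 of 29 called higher and 0 lower, with a median of 5.82 (5.58 at the bound); without EEC 1 there were 13, without EEC 2 there were 15 and 1 lower, and with genes of at least 20% background left out 7. Map1b, a microtubule-associated protein of axons, had 20.7, 14.7 and 14.8 against 8050.1 and 17068 (log2 fold change 9.56 ± 0.62, adjusted p = 2.87e-18). Nefm, a neurofilament, had 9.18, 3.20 and 0 against 1180.5 and 1746 (log2 fold change 8.51 ± 0.69, adjusted p = 1.85e-15). Nrxn2, a presynaptic adhesion protein, had 0, 1.28 and 0 against 320 and 223 (a ratio of 571 with a 95% counting interval of 157 to 4729 and adjusted p = 3.2e-08). The background was 67.4% of the Nrxn2 value in EEC 1 and 16.2% in EEC 2. Nrxn2 lost its call with genes of at least 20% background left out. Tubb3, the neuronal tubulin, was read in EEC 1 alone and was not called, with 0 in every stem library against 39.8 and 0. Map1b stood at a log2 fold change of 8.91 without EEC 2. Nefm stood at a log2 fold change of 9.70 without Stem 1. Nefm stood at a log2 fold change of 7.78 without Stem 3.

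Of 32 ligands, 7 were called higher (Bmp2, Fgf11, Wnt3, Wnt5b, Wnt9b, Areg and Vegfa) and 2 lower (Pdgfa and Kitl), with a median of 1.43, which turned to -0.06 without EEC 1. Without EEC 1 there were 6 higher and 2 lower, and without EEC 2 there were 6 and 3. Bmp2, a ligand that restrains crypt proliferation, had 0, 41.6 and 34.4 against 1584 and 7347 (log2 fold change 7.41 ± 0.55, adjusted p = 3.05e-16). Wnt3, a niche ligand of the small intestine, had 0, 0 and 2.70 against 260.3 and 279 (log2 fold change 8.02 ± 1.22, adjusted p = 5.47e-07). Kitl, the ligand of Kit, had 1919, 1693 and 2485 against 206 and 237 (log2 fold change -3.19 ± 0.46, adjusted p = 1.68e-07). Bmp2 and Wnt3 lay higher in both EEC libraries than in any stem library, and Kitl lower, which the naming rule required of Wnt3 and Kitl. The background was 38.2% of the Wnt3 value in EEC 1 and 5.99% in EEC 2. Wnt3 lost its call with genes of at least 20% background left out. Bmp2 stood at a log2 fold change of 5.89 without EEC 2. Wnt3 stood at a log2 fold change of 7.34 without Stem 2. Wnt3 stayed called without Stem 3, with at most 3 reads left in that cell type.

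Of 30 receptors and mediators of EGF, BMP, FGF and Hippo signals found in the files, 7 were called higher and 7 lower, and the median of -0.07 turned to 0.48 with size factors. Leaving out EEC 1 gave 7 and 7 with a median of 0.20, and without EEC 2 there were 3 higher and 8 lower. The BMP mediators Id2, Id3, Smad6 and Smad7 were called higher together with Fgfr1, Spry4 and Tead4. Lrig3, Fgfr4, Etv4, Spry2, Yap1, Tead2 and Tead3 were called lower. Fgfr1 had 32.9, 7.68 and 8.09 against 255 and 1222 (log2 fold change 5.63 ± 0.64, adjusted p = 2.32e-10), and Fgfr4 had 1115, 792 and 862 against 159 and 67.9 (log2 fold change -3.11 ± 0.50, adjusted p = 1.4e-06). Tead2, a partner of Yap1, had 419, 159 and 179.9 against 27.1 and 24.3 (log2 fold change -3.29 ± 0.80, adjusted p = 7.01e-04). Egfr, the EGF receptor, was not called, with 822, 849 and 894 against 945 and 2605 (log2 fold change 1.08 ± 0.36, adjusted p = 0.0121). The FGF receptors Fgfr1 and Fgfr4 thus lay on opposite sides. Fgfr4 stood at a log2 fold change of -3.93 without EEC 1. Egfr (1.44, adjusted p = 4e-04) was called higher without EEC 1. Fgfr1 stood at a log2 fold change of 4.03 without EEC 2. Egfr, not called, stood at 0.14 without EEC 2. Tead2 (-3.20, adjusted p = 0.0112) lost its call without EEC 2. Fgfr1 stood at a log2 fold change of 6.59 without Stem 1.

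Genes of metabolism and of the endoplasmic reticulum (ER) moved less. Of 27 ER folding genes, 1 was called higher and 2 lower, with a median of -0.68; without EEC 1 there were 2 and 3, without EEC 2 there were 1 and 7, and with size factors 4 and 2. Hspa5, the ER chaperone BiP, was not called, with 5210.1, 8265 and 7179 against 1763 and 4339 (log2 fold change -1.16 ± 0.54, adjusted p = 0.0667). Creb3l2 and Creb3l1, membrane-bound transcription factors of secretory cells, went opposite ways, with 45.9, 81.3 and 74.1 against 421 and 349 (log2 fold change 2.49 ± 0.48, adjusted p = 3.7e-05) and 6826, 3212 and 3622 against 687 and 1215 (log2 fold change -2.24 ± 0.58, adjusted p = 0.00150). Pdia6, a disulfide isomerase, had 2272, 3384 and 2858 against 814 and 408 (log2 fold change -2.25 ± 0.55, adjusted p = 7.26e-04). The ER genes thus gave no common direction. Pdia6 stood at a log2 fold change of -2.96 without EEC 1. Pdia6 (-1.81, adjusted p = 0.0115) lost its call without EEC 2. Hspa5 (-1.97, adjusted p = 0.00489) was called lower without EEC 2. Creb3l1 (-1.82, adjusted p = 0.0151) lost its call without Stem 1.

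Of 21 glycolysis genes, 4 were called higher (Aldoc, Eno2, Slc2a1 and Slc16a3) and 2 lower (Pgam1 and Pdk1), and the median of -0.35 turned to 0.15 with size factors. With EEC 2 alone there were 5 higher and 1 lower, without EEC 2 there were 1 and 7, and with size factors 6 and 1. Slc16a3, a lactate transporter, had 0, 42.2 and 6.06 against 759 and 652 (log2 fold change 5.35 ± 0.59, adjusted p = 6.42e-11). Eno2, the neuronal enolase, had 18.4, 0 and 13.5 against 201 and 193 (log2 fold change 4.26 ± 0.82, adjusted p = 3.17e-05). Pgam1, a phosphoglycerate mutase with many processed copies, had 495, 284 and 341 against 5.42 and 49.7 (log2 fold change -3.55 ± 0.70, adjusted p = 5.25e-05). Hk1, a hexokinase, was not called, with 1336, 1881 and 1461 against 1441 and 3849 (log2 fold change 0.78 ± 0.39, adjusted p = 0.0963). Of the glycolysis genes 20 averaged 50 or more, and 18.7% of all such genes were called higher. The 4 called higher were thus near that share, and most enzymes of the pathway were not called. Eno2 (4.07, adjusted p = 5.75e-04) averaged under 50 and lost its call without EEC 1. Hk1 (1.14, adjusted p = 0.00587) was called higher without EEC 1. Hk1, not called, stood at -0.12 without EEC 2. Pgam1 stayed called without EEC 2, with at most 3 reads left in that cell type. Eno2 (4.29, adjusted p = 2.49e-04) averaged under 50 and lost its call without EEC 2. Eno2 stood at a log2 fold change of 4.87 without Stem 1. Slc16a3 stood at a log2 fold change of 7.62 and Eno2 at 3.53 without Stem 2.

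Of 22 genes of fatty acid oxidation and ketogenesis, 8 were called lower and 0 higher, with a median of -1.18; without EEC 1 there were 3 lower and 1 higher, without EEC 2 there were 17 lower and 0 higher, and with size factors 6 lower and 2 higher. Acaa2, a thiolase, had 2826, 2308 and 2840.1 against 161 and 724 (log2 fold change -2.51 ± 0.46, adjusted p = 1.61e-05). Eci1 and Decr1, which handle unsaturated fatty acids, had 1089, 1105 and 1066 against 266 and 265 (log2 fold change -2.03 ± 0.45, adjusted p = 2.17e-04) and 1139.8, 1071 and 1216 against 79.5 and 575 (log2 fold change -1.70 ± 0.47, adjusted p = 0.00283). Cpt1a, which admits fatty acids to mitochondria, was not called, with 5222, 4895 and 4704 against 765 and 3105 (log2 fold change -1.33 ± 0.46, adjusted p = 0.0148). EEC 1 lay below EEC 2 in Acaa2, Decr1 and Cpt1a and close to it in Eci1. Of 22 cholesterol synthesis genes, 1 was called lower, Ebp, and the median of 0.03 turned to -0.85 without EEC 2. Without EEC 1 there were 3 lower, without EEC 2 there were 5, and with size factors 1 lower and 4 higher. Ebp, a sterol isomerase, had 694, 757 and 689 against 7.23 and 249.9 (log2 fold change -2.29 ± 0.53, adjusted p = 3.97e-04), and Hmgcs1 was not called, with 1502, 1593 and 1142 against 797 and 2951 (log2 fold change 0.43 ± 0.44, adjusted p = 0.433). Ebp stood at a log2 fold change of -1.68 without EEC 1. Decr1 (-1.15, adjusted p = 0.0370) lost its call without EEC 1. Acaa2 stood at a log2 fold change of -4.05, Decr1 at -3.84 and Ebp at -6.60 without EEC 2. Hmgcs1, not called, stood at -0.83 without EEC 2. Cpt1a (-2.69, adjusted p = 7.62e-05) was called lower without EEC 2. Cpt1a (-1.46, adjusted p = 0.00752) was called lower without Stem 2. Cpt1a (-1.53, adjusted p = 0.00501) was called lower without Stem 3.

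Immediate early and stress genes, which cell dissociation can induce, had 7 of 24 called higher and 4 lower, and the median of 0.94 turned to -0.62 without EEC 2. Leaving out EEC 1 gave 9 higher and 2 lower, without EEC 2 there were 3 and 4, and with size factors there were 13 and 2. Egr1 and Fosb, fast-induced transcription factors, had 272, 325 and 472 against 1708 and 2894 (log2 fold change 2.70 ± 0.40, adjusted p = 3.7e-07) and 149, 61.5 and 123 against 436 and 1049.5 (log2 fold change 2.79 ± 0.47, adjusted p = 3.71e-06). Fos had 308, 309.8 and 736 against 859 and 4290.4 (log2 fold change 2.53 ± 0.48, adjusted p = 2.41e-05). Mt2, a metallothionein, had 1184, 447 and 1069 against 125 and 172 (log2 fold change -2.56 ± 0.69, adjusted p = 0.00214). These genes were higher in EEC 2 than in EEC 1. The part of dissociation in these values was not tested. Of 7 keratins, 2 were called higher (Krt7 and Krt20), with a median of 1.18; without EEC 1 there were again 2, without EEC 2 there were 1 higher and 1 lower, and with size factors 4 higher. Krt20, a keratin of differentiated colon epithelium, had 618, 528 and 342 against 16892 and 43393 (log2 fold change 5.93 ± 0.57, adjusted p = 1.38e-12), and Krt7 had 3216, 2767 and 2801 against 3901 and 15552 (log2 fold change 1.74 ± 0.45, adjusted p = 0.00124). Mt2 (-2.54, adjusted p = 0.0248) lost its call without EEC 1. Fosb stood at a log2 fold change of 1.98 and Krt20 at 5.09 without EEC 2. Fos (0.92, adjusted p = 0.162), Mt2 (-2.85, adjusted p = 0.0109) and Krt7 (0.41, adjusted p = 0.473) lost their calls without EEC 2.

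The 10 largest increases, among called genes averaging 500 or more in EECs with a background under 20% of that level and no overlap between groups, were Vgf, Glp1r, Rgs4, Galr1, Lrrn1, Lmx1a, Amigo2, Slc35d3, Tph1 and Cdk5r2. Rgs4, a brake on G protein signals, had 0 in every stem library against 456 and 2558 (at least 2186-fold higher, adjusted p = 2.81e-14). Lrrn1 and Amigo2, leucine-rich repeat membrane proteins, had 0 in every stem library against 718 and 2098 (at least 2043-fold higher, adjusted p = 1.07e-14) and 0, 0 and 0.674 against 1455 and 4333 (a ratio of 13832 with a 95% counting interval of 2481 to 546458 and adjusted p = 9.21e-17). Slc35d3, a member of the nucleotide sugar transporter family, had 0 in every stem library against 434 and 1562 (at least 1448-fold higher, adjusted p = 2.72e-14). Cdk5r2, an activator of the neuronal kinase Cdk5, had 0 in every stem library against 268 and 1666 (at least 1403-fold higher, adjusted p = 1.23e-12). In each of these 10 genes EEC 2 was higher than EEC 1. The bounds for Rgs4, Slc35d3 and Cdk5r2 were at least 3712-fold, 2266-fold and 2418-fold higher without EEC 1. The bounds for Rgs4, Lrrn1, Slc35d3 and Cdk5r2 were at least 661-fold, 1042-fold, 629.6-fold and 388-fold higher without EEC 2. The ratio for Amigo2 was 6336 without EEC 2, with an interval of 1134 to 250552. Slc35d3 (adjusted p = 1.98e-09) and Cdk5r2 (adjusted p = 9.11e-07) averaged under 50 and lost their calls without EEC 2.

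The 10 largest decreases, among called genes averaging 500 or more in stem cells with a background under 20% of that level and no overlap between groups, were Hist1h2ae, Siva1, Nox1, Hist1h3g, Hist1h1b, Hist1h3c, Rnf186, Hist1h2an, Hist1h2ag and Ube2c. Of these, 6 encode replication-dependent histones, whose near-identical copies share reads, so their single levels are uncertain. Hist1h2ae had 724, 738 and 722 against 0 in both EEC libraries (at least 334-fold lower, adjusted p = 2.81e-07), and Hist1h1b, a linker histone, had 2917, 4948 and 3620.3 against 66.9 and 14.6 (log2 fold change -6.73 ± 0.78, adjusted p = 6.82e-10). Hist1h3c and Hist1h3g had 1149, 1134 and 875 against 25.3 and 0 (log2 fold change -6.67 ± 0.82, adjusted p = 3.1e-09) and 567, 938 and 528 against 14.5 and 0 (log2 fold change -6.83 ± 1.18, adjusted p = 5.33e-06). Hist1h2an and Hist1h2ag had 832, 1104 and 742 against 25.3 and 2.43 (log2 fold change -6.24 ± 1.00, adjusted p = 1.4e-06) and 511, 833 and 458 against 0 and 14.6 (log2 fold change -6.10 ± 0.95, adjusted p = 7.13e-07). In each of these histone genes the stem libraries lay above both EEC libraries, as the condition of no overlap required. Nox1 (ENSMUSG00000031257, chromosome X, 134086421 to 134221956), the NADPH oxidase of the colon epithelium, had 2522, 2123 and 2172 against 5.42 and 14.6 (log2 fold change -7.69 ± 0.78, adjusted p = 6.17e-12). Siva1, an apoptosis-related protein, had 517, 709.9 and 413 against 0 in both EEC libraries (at least 251-fold lower, adjusted p = 2.65e-07). Rnf186, a ubiquitin ligase of colon epithelium, had 1259, 877 and 1209 against 14.5 and 10.9 (log2 fold change -6.48 ± 0.83, adjusted p = 9.09e-09). Hist1h1b stood at a log2 fold change of -8.19 without EEC 1. The bounds for Hist1h2ae and Siva1 were at least 200-fold and 150.2-fold lower without EEC 1. Hist1h3c, Hist1h3g and Hist1h2an stayed called without EEC 1, with at most 3 reads left in that cell type. Hist1h1b stood at a log2 fold change of -5.84, Hist1h3c at -5.37, Hist1h3g at -5.54 and Hist1h2an at -5.14 without EEC 2. The bounds for Hist1h2ae and Siva1 were at least 134-fold and 101-fold lower without EEC 2. Hist1h2ag and Nox1 stayed called without EEC 2, with at most 3 reads left in that cell type.

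Genes of the sorting antigens chose the cells, so their levels are a description. Cd44 had 9577, 9502 and 10724 against 533 and 375, Cd24a had 4258, 3806 and 4595 against 4066 and 15025, Epcam had 21592, 25909 and 27334 against 5845 and 17881 and Kit had 454, 205 and 542 against 667 and 654. Cd44 transcripts followed the gate and Cd24a was higher in EEC 2 alone. Epcam was lower and Kit higher in both EEC libraries than in any stem library. Epcam, Cd24a and Kit were not called (adjusted p = 0.121, 0.0599 and 0.225, edgeR). Their log2 fold changes were -1.07 ± 0.58, 1.18 ± 0.53 and 0.73 ± 0.50. Without EEC 2 Epcam stood at -2.10 and Cd24a at -0.06. Ptprc (Cd45) and Pecam1 (Cd31), for which both gates were negative, had 0, 21.8 and 32.3 against 544 and 311 and 0, 0 and 2.70 against 618 and 733, and both were thus higher in EEC libraries. Among other first markers, Dclk1, a tuft cell kinase, had 12.2, 21.1 and 3.37 against 1782 and 3939.8 (log2 fold change 7.85 ± 0.72, adjusted p = 2.67e-13), and Col1a1, a fibroblast collagen, had 2.29, 16.6 and 1.35 against 651 and 31.5 (log2 fold change 5.41 ± 1.05, adjusted p = 3.57e-05). Muc2, the goblet mucin, was not called, with 17619, 9243 and 9849 against 24908 and 12773 (log2 fold change 0.62 ± 1.15, adjusted p = 0.687). Car1, an enterocyte carbonic anhydrase, was not called, with 9784, 20153 and 17387 against 3466 and 79379 (log2 fold change 1.39 ± 0.66, adjusted p = 0.0730). Col1a1 was high in EEC 1 alone and Car1 in EEC 2 alone. Muc2, not called, stood at -0.11 without EEC 1. Col1a1 (1.97, adjusted p = 0.569) lost its call without EEC 1. Car1 (2.17, adjusted p = 1.79e-04) was called higher without EEC 1. Dclk1 stood at a log2 fold change of 7.15 and Col1a1 at 6.49 without EEC 2. Car1 (-2.19, adjusted p = 0.00403) was called lower without EEC 2. Dclk1 stood at a log2 fold change of 8.45 and Col1a1 at 7.26 without Stem 2. Dclk1 stood at a log2 fold change of 7.23 and Col1a1 at 4.79 without Stem 3.

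Skipped exons were compared by their inclusion, the percent of the form that holds the exon. It was taken from junction and exon reads, with the counts of each form divided by its effective length. The table lists its stem and EEC entries without library names, so they cannot be tied to libraries and the entries of each group have no order. Of 1984 events, 474 had at least 10 counts in every entry and were tested with edgeR. Of these, 0 were called at an adjusted p under 0.05 (smallest 0.858), and 4 (0.844%) had an unadjusted p under 0.05. The groups did not overlap in 26 events with higher inclusion in EECs (5.49%) and in 9 with lower (1.9%). The median standard error of the log2 odds was 4.83, and the median event had 39 and 98.5 counts in the EEC entries against 211 to 261 in the stem entries.

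The 4 exons with an unadjusted p under 0.05, chosen after their values were seen, were as follows. A 60-base exon of Dync1i2, a dynein intermediate chain (chromosome 2, 71233649 to 71233708, mm10), had an inclusion of 0% in all 3 stem entries and of 100% and 53.3% in EECs (unadjusted p = 0.00927, edgeR). A 207-base exon of Ybx3, a cold shock RNA-binding protein (chromosome 6, 131375974 to 131376180), had 39.8%, 16.2% and 15.9% against 100% in both EEC entries (unadjusted p = 0.0278, edgeR). A 117-base exon of Ush1c, the microvillar scaffold harmonin (chromosome 7, 46196704 to 46196820), had 0% in all 3 stem entries and 100% and 5.6% in EECs (unadjusted p = 0.0232, edgeR). These 3 exons keep the reading frame by their length. A 79-base exon of Ndufs4, a subunit of respiratory complex I (chromosome 13, 114351448 to 114351526), had 100% in all 3 stem entries and 40.5% and 55.6% in EECs (unadjusted p = 0.00852, edgeR). Exons of at most 30 bases, the class that neural Srrm proteins regulate, numbered 7 in 9 of the events tested, and none was called. The nearest was a 27-base exon of Ctage5, a protein of collagen export from the ER (chromosome 12, 59146336 to 59146362), which stands in 2 events with different neighbouring exons. In one it had 65.7%, 67.5% and 68.1% against 100% in both EEC entries (unadjusted p = 0.109, edgeR), and in the other 62.4%, 90.3% and 38.1% against 100% in both (unadjusted p = 0.137, edgeR).

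The distal polyadenylation share is the estimated fraction of a transcript's reads that extend to the more distant of its sites. Of 1343 transcripts, 718 from 673 genes had a share in all 5 entries, which are unnamed here too. With limma 0 were called at an adjusted p under 0.05 (smallest 0.190), while 100 (13.9%) had an unadjusted p under 0.05, of which 92 were lower in EECs and 8 higher. The groups did not overlap in 198 transcripts with a lower share in EECs (27.6%) and in 34 with a higher one (4.74%). The median share was 0.26, 0.285 and 0.30 in stem entries and 0.13 and 0.23 in EEC entries, and the median difference was -0.053. The share was listed at 0 in 1.7% to 4.0% of transcripts in stem entries and in 14.5% and 6.5% in EEC entries. The EEC libraries also had fewer reads on genes (4122122 and 13132315), and the part of depth in the shares was not tested.

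Single transcripts named here were chosen after their values were seen. Irf2, an interferon regulatory factor (chromosome 8, 46845914 to 46847458, mm10), had distal shares of 0.57, 0.71 and 0.76 against 0.04 and 0.09 (unadjusted p = 0.00133, adjusted p = 0.190, limma). Jmjd6, a lysyl hydroxylase (chromosome 11, 116837432 to 116837763), had 0.18, 0.23 and 0.43 against 0 in both EEC entries. Mdh2, mitochondrial malate dehydrogenase (chromosome 5, 135790077 to 135790386), had 0.12, 0.15 and 0.10 against 0 and 0.01. Cldn7, a tight junction claudin (chromosome 11, 69967555 to 69967886), went the other way, with 0.35, 0.23 and 0.23 against 0.66 and 0.75 (unadjusted p = 0.00416, adjusted p = 0.190, limma). None of these differences passed the adjusted threshold.

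**Figure D5:**
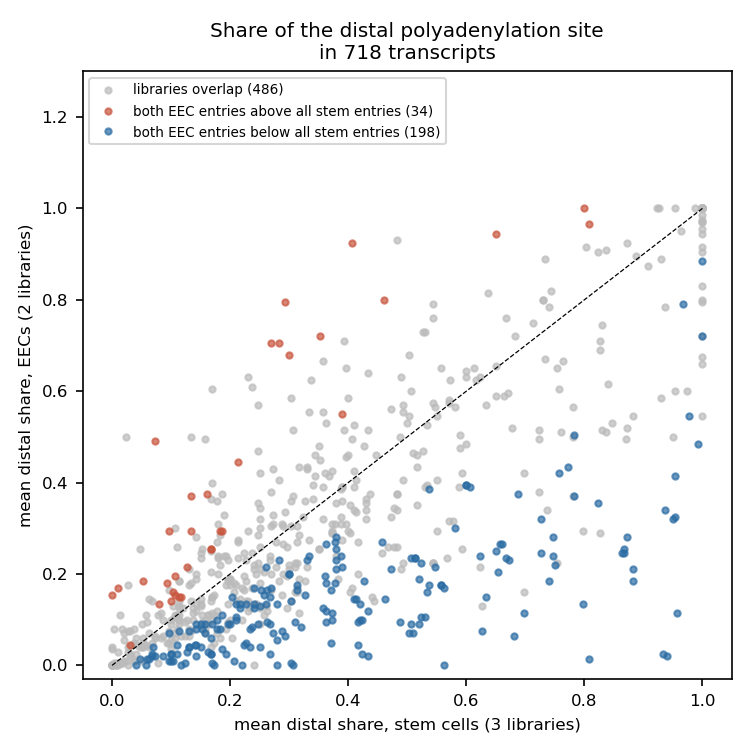
Each point is 1 of 718 transcripts, with its mean distal polyadenylation share in the 3 stem entries on the x axis and in the 2 EEC entries on the y axis, and the dashed line marks equal shares. The 198 transcripts whose EEC entries both lie below all stem entries are blue and the 34 whose EEC entries both lie above are red, and 0 were called.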

How the data were processed

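Gene counts were deposited by the authors as whole numbers of read pairs per gene, without normalization; per the labels and the study's methods, 100 bp paired-end reads from a low-input kit were aligned to mm10 with STAR 2.5.2a and counted with HTSeq 0.6.1p1 without strand, so a gene and an overlapping or antisense neighbour cannot be told apart. The 5 summary lines of each count file that stand for no gene were left out of all totals and fits. All 22 libraries entered one edgeR 4.0.16 quasi-likelihood fit (R 4.3.3) after filterByExpr and TMM scaling, with the contrast EEC minus Stem. Normalized counts are counts divided by the effective library size and multiplied by the mean effective size. Genes were called below 0.01 after Benjamini-Hochberg adjustment, if they averaged 50 or more normalized counts. The background of a library was its level per kilobase of coding length over 1535 genes of families unused in gut, applied to each gene's length.

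For skipped exons the deposited rMATS table gave inclusion and skipping counts, tested in edgeR with a library term, and for polyadenylation the deposited DaPars table gave the distal fraction of each transcript, tested in limma 3.58.1 on log2 odds with 0.01 added. Columns of the authors' own comparisons (fold changes, p-values) and the MAJIQ table were not used. A cell type without reads was set at 3 reads over its libraries together for a fold bound, and intervals and bounds cover counting error only. The members and lists were chosen with earlier results of these data known. Named genes were the first of each list and its 3 largest called changes without overlap between groups, the 10 largest increases and decreases, the sorting antigens and the first marker of each cell type, of which 1 is not reported here. Alternatives were DESeq2 1.42.0, other scalings, filters and thresholds, and leaving out each library. The fits were also run on simulated data, whose outcome is not reported here and adds no support to the results. The simulated spread of distal shares came from the stem entries alone and leaves out that of the EEC entries.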

Additional observations from a re-analysis of the deposited data

Results flagged for a closer look

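Reads outside annotated genes, which no comparison above uses, took 89.74% of uniquely placed reads in EEC 1 and 64.54% in EEC 2, above the 45.16%, 47.55% and 48.51% of the stem libraries. Both values were set apart because they lie outside the gene counts and exceed every stem library. Among the other cell types, libraries of enterocytes ran from 66.8% to 83.08%, of tuft cells from 43.45% to 68.05%, of absorptive progenitors from 45.49% to 49.37% and of secretory progenitors and deep crypt secretory cells (SecPDG) from 40.85% to 46.82%. The cause was not tested.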

How the results depend on the processing

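In place of the 4541 genes called, there were 7646 with no minimum mean, 1468 in a fit of the 5 libraries alone and 2117 with genes of at least 20% background left out. The 2461 called higher became 4065 with DESeq2, 4395 with size factors, 5563 with no minimum mean, 958 in the fit of the 5 libraries, 1037 with the background left out and 1500 with edgeR's earlier quasi-likelihood estimate, an alternative chosen after seeing the data. The 2080 called lower became 1276 with size factors, 510 in the fit of the 5 libraries, 3277 at an adjusted p under 0.05 and 1080 with the background left out. Leaving out genes by background drops genes for a low EEC level, so the 1080 is no check on a decrease. Leaving out 1 library gave 3277 (without EEC 1) to 5631 (without EEC 2) genes in all, 1530 (without EEC 1) to 2388 (without Stem 1) higher and 1747 (without EEC 1) to 3368 (without EEC 2) lower. With 1 EEC library left, its spread is taken from the other cell types. The fit of the 5 libraries has fewer samples, and the cause of the other shifts was not tested. Of the named genes, Car1 reversed, with log2 fold changes from -2.19 without EEC 2 (adjusted p = 0.00403) to 2.17 without EEC 1. For distal polyadenylation, 6 transcripts were called when a share in 2 stem entries and 1 EEC entry sufficed, and leaving out 1 entry gave 0 to 178, the highest without one EEC entry and 48 without the other, where the lone entry is assumed to vary like the stem entries. No skipped exon was called under any alternative run, which included lower and higher minimum counts and leaving out each entry. The depth of EEC 1, 4122122 reads on genes, limits values near 0 in EECs.

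Stem and EEC libraries share the replicate numbers 1 and 2 in their labels. The study states that replicates came from independent mice and sorts, but not whether a stem and an EEC library shared mice. With a replicate block, 4851 genes were called, 2501 higher and 2350 lower. Deviations from the group mean correlated at 0.053 for number 1 and 0.138 for number 2. With 2 EEC libraries their deviations mirror each other, so these values say little about pairing. Because no pairing by number is stated, the numbers were taken not to pair the libraries. For skipped exons and polyadenylation no analysis by replicate number was possible, because their tables do not name the libraries.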
